A study of Homo sapiens with 6 samples.

Results

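The genes described here were 6 metallothioneins (MT1E, MT1F, MT1G, MT1M, MT1X and MT2A), the transcription factor MTF1 and the zinc exporter SLC30A1. They were taken by gene symbol, and all 8 had a row among the 23152 genes of the count table. RNA sequencing was used to compare T24 cells, an established human bladder cancer line, in 2 groups of 3 samples. The vector group carried the empty vector, and the oeRNF112 group overexpressed RNF112, a RING-type ubiquitin ligase whose effects on bladder cancer cells the study examined. Both groups were cultured in the same RPMI medium with fetal bovine serum. The transfection note in the labels names siRNA, whereas the groups are named as vector and overexpression, and neither the promoter driving RNF112 nor the time from transfection to harvest was given for these samples. Counts of RNF112 were 27, 19 and 24 with the vector and 29753, 36963 and 31712 with overexpression, a log2 fold change of 10.37 (SE 0.177, edgeR adjusted p = 7.4e-10). Nothing in the sources says that the 3 samples of a group were separate cultures, so p-values measure the spread between these samples only, which may be technical.

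Metallothioneins are small, cysteine-rich proteins that bind zinc, copper and cadmium in the cytosol and buffer the free metal. When zinc rises, MTF1 binds metal response elements in the promoters of metallothionein genes and of SLC30A1, which pumps zinc out of the cell across the plasma membrane. Glucocorticoids and oxidative stress are further known inducers of metallothionein genes. The protocols in the labels name no added metal.

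Of these 8 genes, MT1X rose in oeRNF112 cells, by a log2 fold change of 0.57 (SE 0.175, n = 3 per group, edgeR adjusted p = 0.0482). MT1F lay above the vector samples in every oeRNF112 sample but missed the threshold (log2 fold change 0.49, SE 0.178, edgeR adjusted p = 0.085). The 2 abundant genes, MT2A and MT1E, and the sparse MT1M were fitted below 0 without being called, and MT1G was at or under the detection floor in every sample. Within the family, counts of MT1X and MT1F were higher relative to MT2A in all oeRNF112 samples, and counts of MT1E and MT1M were lower. For MT1M the nearest values of the groups, 0.633 and 0.631 per 100 counts of MT2A, were almost equal. This ratio was chosen after the data were seen, and 20.3% of all tested genes, of any length, did not overlap in it.

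The libraries held 40029547 to 41259569 counts on genes, so that 3 counts, taken as the floor of detection, corresponded to 0.0727 to 0.0749 CPM, the count scaled to the library total; such floors cover counting error only. The keratin genes KRT7, KRT8, KRT18 and KRT19 were abundant in every sample, whereas the urothelial plaque genes UPK2 and UPK3A had at most 7 counts. KRT7 and KRT18 were called lower in oeRNF112 samples (log2 fold change -0.48 and -0.51, edgeR adjusted p = 0.0226 and 0.013). EPCAM, an epithelial adhesion gene, was low, with 1.05 to 2.92 RPKM, and was called higher (log2 fold change 0.84, edgeR adjusted p = 0.0208). The part of these markers in the members' results was not tested. Summed over 7 leukocyte markers, normalized CPM, scaled with TMM factors too, was 3.54 to 4.15 in vector and 2.83 to 5.62 in oeRNF112 samples. LYZ had 97 counts in oeRNF112 replicate 1, against 2 to 8 elsewhere. Summed normalized CPM was at most 0.567 over the endothelial markers and 2.46 to 3.47 over the fibroblast markers. Of the latter, PDGFRA was called higher at low counts, with 1, 3 and 8 in vector and 19, 29 and 19 in oeRNF112 samples (log2 fold change 2.36, SE 0.57, edgeR adjusted p = 0.0194), while DCN and LUM had at most 3 counts. Of the 14467 genes that passed the filter on low counts, 2620 were called at an adjusted p under 0.05, which is 18.1%. Those called higher were 1442, or 9.97%. In 36.8% of the tested genes the 2 groups did not overlap in normalized CPM. As in any bulk sample, fewer cells with a transcript and less transcript per cell cannot be told apart.

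The metallothionein genes lie side by side on the long arm of chromosome 16, and their coding sequences are close to identical. In GRCh38.p14 the order is MT2A (chr16:56608584-56609497), MT1E (chr16:56625781-56627112), MT1M (chr16:56632659-56633981), MT1F (chr16:56657959-56659303), MT1G (chr16:56666730-56668065, minus strand) and MT1X (chr16:56682470-56684196), with the others on the plus strand. Each has 3 exons and a coding sequence of 186 bases, with 61 codons before the stop, of which 20 encode cysteine. MTF1 (chr1:37809574-37859592) and SLC30A1 (chr1:211571568-211579161) lie on the minus strand of chromosome 1. The coding sequences of the 5 metallothioneins that could be tested are shown because their likeness bears on how far counts can be assigned to 1 gene; they were read from the GENCODE transcripts of GRCh38, and capitals mark bases that differ from MT2A.
MT2A: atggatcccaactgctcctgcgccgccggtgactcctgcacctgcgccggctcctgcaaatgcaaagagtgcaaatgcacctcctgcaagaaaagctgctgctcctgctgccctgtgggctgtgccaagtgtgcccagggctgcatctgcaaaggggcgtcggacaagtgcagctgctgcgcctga
MT1E: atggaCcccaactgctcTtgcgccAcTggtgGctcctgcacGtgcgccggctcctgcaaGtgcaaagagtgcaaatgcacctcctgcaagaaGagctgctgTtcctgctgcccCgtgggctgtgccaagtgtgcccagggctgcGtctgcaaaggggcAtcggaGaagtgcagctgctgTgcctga
MT1M: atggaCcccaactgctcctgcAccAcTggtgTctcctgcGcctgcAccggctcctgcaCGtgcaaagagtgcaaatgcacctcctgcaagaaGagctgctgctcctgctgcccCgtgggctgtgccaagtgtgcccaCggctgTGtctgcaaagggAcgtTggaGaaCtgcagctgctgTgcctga
MT1F: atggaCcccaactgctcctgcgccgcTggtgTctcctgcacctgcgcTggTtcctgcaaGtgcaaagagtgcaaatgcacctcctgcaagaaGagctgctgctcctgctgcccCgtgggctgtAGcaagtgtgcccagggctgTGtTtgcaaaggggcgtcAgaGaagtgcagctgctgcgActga
MT1X: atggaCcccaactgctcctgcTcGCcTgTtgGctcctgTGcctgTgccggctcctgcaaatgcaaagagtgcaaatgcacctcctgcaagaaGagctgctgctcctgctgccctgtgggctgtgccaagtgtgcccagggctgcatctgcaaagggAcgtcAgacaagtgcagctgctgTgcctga

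MT1G differed from MT2A at 9 bases, MT1E and MT1X at 14 each, MT1F at 16 and MT1M at 19. Among all pairs of the 6 genes, identity ran from 88.7% for MT1F with MT1X to 95.2% for MT1G with MT2A. Outside the coding part the transcripts diverge, and few stretches of 50 bases in the whole transcript were shared exactly with another gene. The share was 3.59% for MT1F, 4.88% for MT2A, 5.34% for MT1E and 7.05% for MT1M, against 20.2% for MT1G and 45.1% for MT1X. At 100 bases no stretch was shared for MT1E, MT1F, MT1G, MT1M or MT2A. For MT1X 19.1% were shared, all with AC026461.1, an annotated gene that has no row of that name in the count table. The read length and the treatment of reads with several matches were not given in the sources used here. By these shares the count of MT1X, the one called member, is the least certain of the 5 in this respect. Its longest run shared with another of the 6 genes was 96 bases, with MT1G. At 150 bases 5.65% of the stretches of MT1X were still shared, all with AC026461.1. These shares count exact matches only, so they do not settle at which read length reads could be shared or lost. The shares use transcripts of 786 bases for MT2A, 829 for MT1M and 690 for MT1F. The deposited values imply 401, 398 and 467 bases, so the shares may be too low for these genes.

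By level per length (RPKM), MT2A stood far above the rest of the family in every sample. MT2A had 1342, 1110.2 and 1552.2 RPKM in vector and 1296.2, 1465.5 and 1086.6 RPKM in oeRNF112 samples, and its rank among all 23152 genes lay between 34 and 54. MT1E came next, with 328, 272 and 374 RPKM in vector and 292, 317 and 251 RPKM in oeRNF112 samples. For both genes the ranges of the 2 groups overlapped widely. MT2A and MT1E together made up 97.2% to 98.1% of all counts on the 6 metallothioneins.

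The remaining members were expressed at a small fraction of those levels. In vector cells the mean RPKM was 18.6 ± 1.42 (SD, n = 3) for MT1X, 11.3 ± 4.16 for MT1M, 7.76 ± 0.611 for SLC30A1, 7.51 ± 0.681 for MT1F and 1.54 ± 0.279 for MTF1. The samples of MT1M, SLC30A1 and MT1F overlapped each other, so their order in vector cells was not resolved. In oeRNF112 cells the order was MT1X with 29.5 ± 6.56 (SD, n = 3), MT1F with 11.2 ± 1.99, SLC30A1 with 9.76 ± 1.72, MT1M with 7.77 ± 0.801 and MTF1 with 1.82 ± 0.375, and the samples of MT1F and SLC30A1 overlapped, so the order of these 2 was not resolved. MT1F thus had the higher mean than MT1M in oeRNF112 cells and the lower one in vector cells, and in oeRNF112 cells the samples of these 2 genes did not overlap. RPKM of different genes depends on the length used. The values imply 401 bases for MT2A, 398 for MT1M and 467 for MT1F, where the reference transcripts hold 786, 829 and 690 bases.

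**Figure D1:**
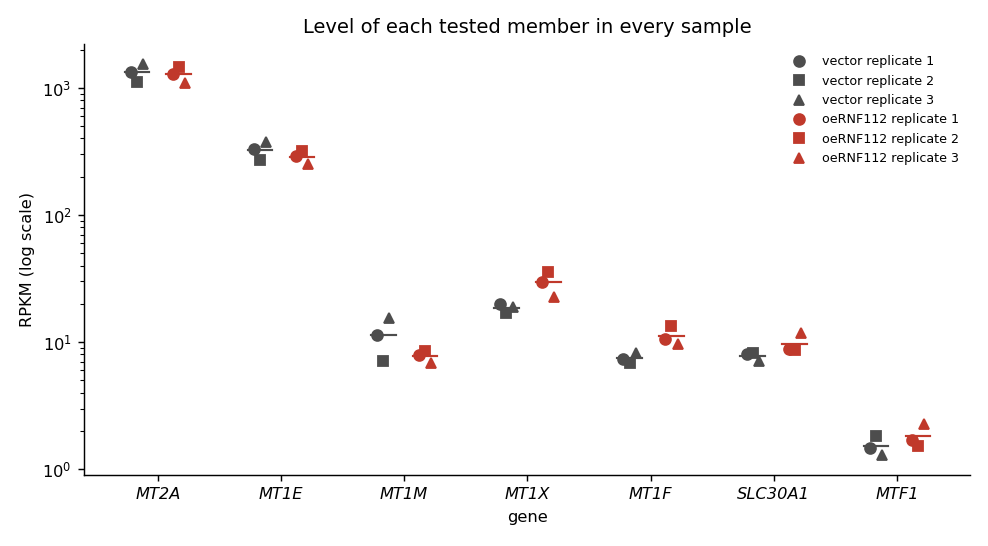
Level of the 7 tested members in every sample, as RPKM on a log scale. Grey symbols are vector samples, red symbols are oeRNF112 samples, symbol shapes mark replicates 1 to 3 and the short lines are group means; MT2A lies between 1086.6 and 1552.2 RPKM in all samples, and the red symbols of MT1X and MT1F lie above the grey ones.

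MT1X, the last of the members along the cluster, was the only member called. It had 332, 280 and 308 counts in vector and 484, 587 and 371 counts in oeRNF112 samples. The groups did not overlap, with oeRNF112 replicate 2 the highest and oeRNF112 replicate 3 the nearest to the vector range. The fitted fold was 1.48 (1.32 to 1.68 for 1 SE either way). The call was close to the threshold: it was lost without vector replicate 1 (edgeR adjusted p = 0.102), vector replicate 2 (edgeR adjusted p = 0.0677), vector replicate 3 (edgeR adjusted p = 0.0896), oeRNF112 replicate 1 (edgeR adjusted p = 0.127) or oeRNF112 replicate 2 (edgeR adjusted p = 0.118), with log2 fold changes of 0.40 to 0.64. It stood without oeRNF112 replicate 3, at 0.74 (edgeR adjusted p = 0.0141).

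MT1F, another metal-binding isoform, had 143, 130 and 155 counts in vector and 198, 255 and 182 counts in oeRNF112 samples. Here too the groups did not overlap, and oeRNF112 replicate 2 was again the highest. The fitted fold was 1.4 (1.24 to 1.59 for 1 SE either way), with an unadjusted p of 0.0206 and an edgeR adjusted p of 0.085. The value was past the threshold with library totals in place of TMM factors (log2 fold change 0.58, edgeR adjusted p = 0.0417).

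MT2A, usually the main metallothionein of human cells, had 22203, 18022 and 25100 counts in vector and 20806, 23825 and 17593 counts in oeRNF112 samples. The highest and the lowest value of the 6 were vector replicate 3 and oeRNF112 replicate 3, and each group spanned most of the range of the other. The log2 fold change was -0.15 (SE 0.152, edgeR adjusted p = 0.519). With a smooth trend on gene length removed from each sample, an alternative chosen after the data were seen, it was 0.07 (SE 0.061).

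MT1E, the neighbour of MT2A, had 10109, 8222 and 11252 counts in vector and 8714, 9592 and 7573 counts in oeRNF112 samples. Vector replicate 2 lay inside the oeRNF112 range, and the other two vector samples lay above it. The log2 fold change was -0.27 (SE 0.138, edgeR adjusted p = 0.196), and it was called lower without vector replicate 2, at -0.40 (edgeR adjusted p = 0.0288).

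MT1M, a low-abundance isoform, had 188, 114 and 247 counts in vector and 126, 137 and 111 counts in oeRNF112 samples. Its vector samples spread more than those of any other tested member on the log2 scale (SD 0.59), and vector replicate 2 fell inside the oeRNF112 range. The log2 fold change was -0.64 (SE 0.264, edgeR adjusted p = 0.122), with an unadjusted p of 0.0361. Without vector replicate 2 it was called lower, at -0.90 (edgeR adjusted p = 0.00743).

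MT1G had 1, 0 and 2 counts in vector and 0, 0 and 3 counts in oeRNF112 samples. These lie at or under the floor of 3 counts, so MT1G did not pass the filter and no fold is given. Of 13 further metallothionein genes and pseudogenes looked up, MT1B, MT1H and MT3 had a row, each with at most 2 counts in any sample.

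MTF1, the zinc-sensing activator, had 542, 662 and 463 counts in vector and 602, 551 and 805 counts in oeRNF112 samples. The groups overlapped, and oeRNF112 replicate 3 was the highest. The log2 fold change was 0.15 (SE 0.161, edgeR adjusted p = 0.544), and it was -0.01 without oeRNF112 replicate 3. MTF1 is known to be controlled largely after transcription, by metal binding and movement to the nucleus, which counts do not measure.

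SLC30A1, the plasma membrane zinc exporter and a known MTF1 target, had 1949, 1956 and 1678 counts in vector and 2076, 2085 and 2795 counts in oeRNF112 samples. Again every oeRNF112 value exceeded every vector value, though only oeRNF112 replicate 3 stood well apart. The log2 fold change was 0.24 (SE 0.121, edgeR adjusted p = 0.204). Among the 7 tested members, 1 was called higher and 0 lower, against 9.97% and 8.14% of all tested genes, so the count of calls does not set the members apart. At an unadjusted p under 0.05 there were 3 members, MT1X, MT1F and MT1M, where 33.1% of all tested genes were under it, and DESeq2 also called 1 higher and 0 lower. The groups of 3 of the 7 members, MT1X, MT1F and SLC30A1, did not overlap in normalized CPM, against 36.8% of all tested genes.

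A ratio taken inside each sample removes whatever acts on all metallothionein transcripts alike, and MT2A served as the denominator because it was the most abundant; this comparison was chosen after the data were seen. MT1X had 1.5, 1.55 and 1.23 counts per 100 counts of MT2A in vector and 2.33, 2.46 and 2.11 in oeRNF112 samples. The means were 1.43 ± 0.174 and 2.30 ± 0.179 (SD, n = 3), a ratio of 1.61, and the gap between the groups exceeded the range of either. For MT1F the values were 0.644, 0.721 and 0.618 in vector and 0.952, 1.07 and 1.03 in oeRNF112 samples, with a ratio of means of 1.54.

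MT1E moved the other way by a small amount relative to MT2A. It had 45.5, 45.6 and 44.8 counts per 100 counts of MT2A in vector and 41.9, 40.3 and 43.0 in oeRNF112 samples, with means of 45.3 ± 0.434 and 41.7 ± 1.4 (SD, n = 3). For MT1M the values were 0.847, 0.633 and 0.984 in vector and 0.606, 0.575 and 0.631 in oeRNF112 samples. Those groups were separated by less than the spread within the vector group, since vector replicate 2 lay just above oeRNF112 replicate 3. All 4 metallothioneins set against MT2A therefore did not overlap between the groups in this ratio, whereas 20.3% of all tested genes did not overlap in their ratio to MT2A. The 4 ratios share 1 denominator, and the 20.3% covers genes of all lengths. Long genes ran opposite to MT2A from sample to sample, as given below, so that share is no like background for short genes. The comparison cannot show whether the family stands apart. MTF1 and SLC30A1, both long, overlapped in the ratio to MT2A, as did SOD1 and KRT19, which lie outside the family. The ratio of means was 0.934 for SOD1 and 0.981 for KRT19, beside 0.921 for MT1E. SOD1 thus had a ratio of means near that of MT1E, but its groups overlapped and those of MT1E did not. These genes were picked as checks, so whether such a shift is particular to a metallothionein was not tested.

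**Figure D2:**
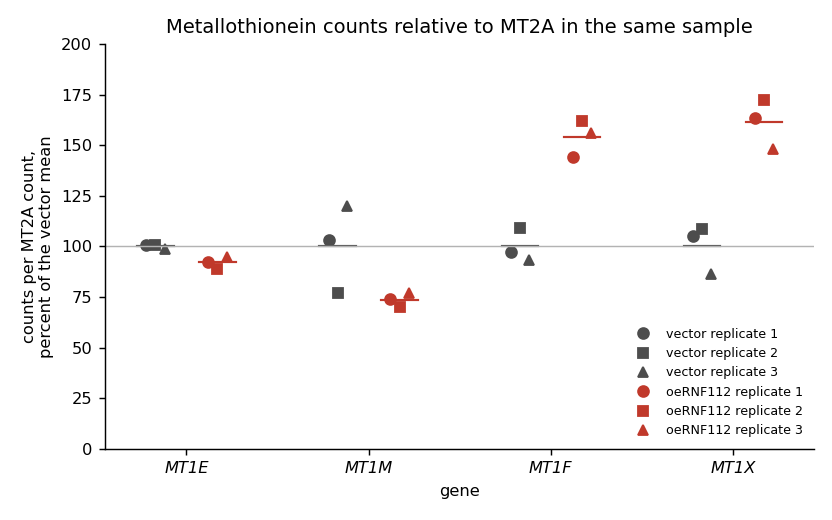
Counts of MT1E, MT1M, MT1F and MT1X divided by the count of MT2A in the same sample, as a percent of the vector mean. Grey symbols are vector samples, red symbols are oeRNF112 samples and short lines are group means. For each gene the red and grey symbols do not overlap, though the nearest ones of MT1M are almost equal. Those of MT1F and MT1X are higher and those of MT1E and MT1M lower in oeRNF112 samples.

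As shares of all metallothionein counts, MT2A made up 67.5% ± 0.226 in vector and 68.7% ± 0.584 in oeRNF112 cells (SD, n = 3). The share of MT1E was 30.6% ± 0.191 and 28.6% ± 0.718, and that of MT1X was 0.961% ± 0.115 and 1.58% ± 0.136. Summed over the family and scaled to the library total, the level was 799.2, 661.2 and 919.1 CPM in vector and 757.6, 848.4 and 639.8 in oeRNF112 samples. The shares of MT2A, MT1E, MT1X and MT1F did not overlap between the groups and those of MT1M did, and the summed levels overlapped across most of their range. Shares of 1 total depend on each other. MT2A and MT1E made up 97.2% to 98.1% of it, so the higher share of MT2A and the lower share of MT1E are largely the same shift. This measure was not taken over all tested genes, so the overlaps are a description only.

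Along the chromosome, MT2A, MT1E and MT1M at 0, 17.2 and 24.1 kb from the start of MT2A had fitted changes below 0, and MT1F and MT1X at 49.4 and 73.9 kb had fitted changes above 0. With 5 genes this is a description of position only. Of the 6 tested genes flanking the cluster, each missed the threshold (edgeR adjusted p 0.0811 to 0.782), with log2 fold changes of -0.19 to 0.23.

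The promoters of MT2A, MT1X and SLC30A1 are shown because MTF1 is known to act through them. Each sequence covers the 250 bases before the RefSeq transcription start (GRCh38.p14), and capitals mark matches to the core of the metal response element, TGCACNC or TGCGCNC, on either strand.
MT2A, chr16:56608334-56608583, plus strand: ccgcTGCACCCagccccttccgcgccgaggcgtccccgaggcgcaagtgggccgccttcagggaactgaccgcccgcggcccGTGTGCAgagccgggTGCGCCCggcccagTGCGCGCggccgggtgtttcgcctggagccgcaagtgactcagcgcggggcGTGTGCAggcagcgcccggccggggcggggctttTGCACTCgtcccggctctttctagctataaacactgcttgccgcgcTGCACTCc
MT1X, chr16:56682220-56682469, plus strand: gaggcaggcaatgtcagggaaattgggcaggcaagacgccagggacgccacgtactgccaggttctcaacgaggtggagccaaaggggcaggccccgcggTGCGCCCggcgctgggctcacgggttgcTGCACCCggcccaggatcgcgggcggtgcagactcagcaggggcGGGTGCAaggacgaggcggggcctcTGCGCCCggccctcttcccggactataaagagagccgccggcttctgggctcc
SLC30A1, chr1:211579162-211579411, minus strand: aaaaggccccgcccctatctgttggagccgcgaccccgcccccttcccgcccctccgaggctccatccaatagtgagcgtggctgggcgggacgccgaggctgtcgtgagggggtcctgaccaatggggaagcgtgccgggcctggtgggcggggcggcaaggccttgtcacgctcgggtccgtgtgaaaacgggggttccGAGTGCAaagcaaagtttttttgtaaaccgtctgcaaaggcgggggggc

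MT2A held 7 matches in this window and MT1X 4, which 0.0313% and 0.37% of the 35116 promoters in the table equalled or exceeded. SLC30A1 held 1 match, on the opposite strand, as 24.8% of all promoters held at least 1. In the MTF1 promoter these letters were not found in the window. Only 4 of the 8 members were in the promoter table, so the promoters of MT1E, MT1F, MT1G and MT1M were not compared. A match is a description of the letters, and the called MT1X had fewer matches than MT2A, which was not called.

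The values of MT2A and MT1E moved together from sample to sample inside each group. Relative to its own mean, log2 normalized CPM of MT2A was 0.11, -0.21 and 0.32 in vector and -0.05, 0.16 and -0.33 in oeRNF112 samples. For MT1E the same measure was 0.18, -0.14 and 0.37 in vector and -0.11, 0.04 and -0.34 in oeRNF112 samples. Both genes were thus highest in vector replicate 3 and lowest in oeRNF112 replicate 3. MTF1 ran the opposite way, at -0.10, 0.17 and -0.29 in vector and -0.02, -0.13 and 0.37 in oeRNF112 samples.

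Genes of like length showed these patterns too. The median deviation of the 763 tested genes under 1000 bases was 0.116, -0.099 and 0.258 in vector and -0.091, 0.096 and -0.244 in oeRNF112 samples, highest and lowest in the same samples as MT2A. For the 5424 genes of at least 5000 bases it was -0.051, 0.094 and -0.143 in vector and 0.035, -0.055 and 0.137 in oeRNF112 samples, highest and lowest in the same samples as MTF1. The lengths implied by the deposited values were 401 bases for MT2A, 404 for MT1X, 467 for MT1F, 746 for MT1E and 398 for MT1M, and 8872 for MTF1 and 5893 for SLC30A1. The part of this length pattern in the members' results was not tested. With the length trend removed, MT1X had a log2 fold change of 0.77 (SE 0.119, edgeR adjusted p = 0.000876) and MT1F one of 0.68 (SE 0.135, edgeR adjusted p = 0.00365), while MT1E had -0.10 (SE 0.0624) and MT1M -0.39 (SE 0.192).

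The 5 genes outside the members whose pattern over the 6 samples was most like that of MT2A were RPLP2, GADD45GIP1, PRDX5, PSMB9 and HINT2. Likeness was the root mean square difference between centred log2 normalized CPM values, among 11564 genes with a mean count of at least 100. It ran from 0.0179 for RPLP2 to 0.0322 for HINT2. MT1E ranked 105 in this list, with 0.0666. The other members ranked far lower, MT1M at 6352, MT1F at 7612, MT1X at 8778, SLC30A1 at 9019 and MTF1 at 9967. This measure takes in the shift between the groups, which for MT1X makes up much of its difference of 0.368. Inside each group MT1X ran partly with MT2A: both were lowest in vector replicate 2, and in oeRNF112 samples both were highest in replicate 2 and lowest in replicate 3.

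**Figure D3:**
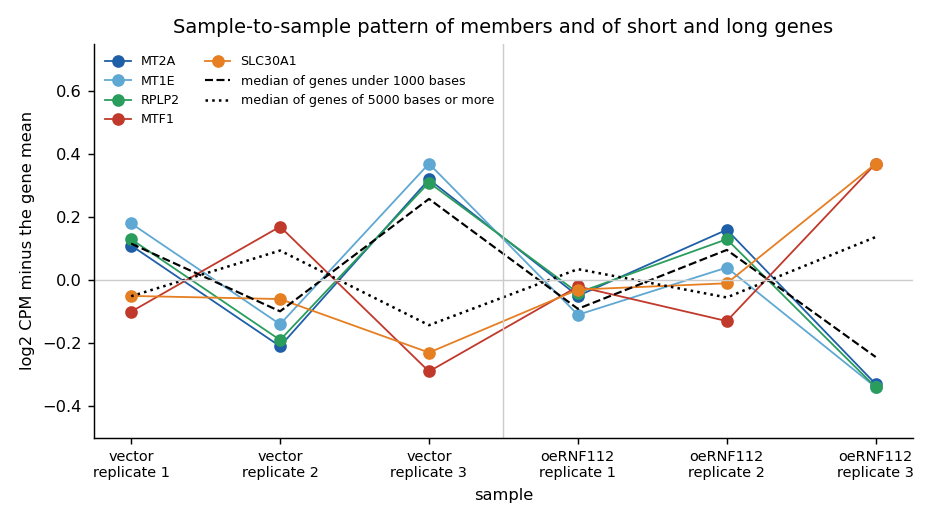
Log2 normalized CPM minus the gene's own mean in each of the 6 samples for MT2A, MT1E, RPLP2, MTF1 and SLC30A1, with the median of short genes (dashed) and long genes (dotted). MT2A, MT1E and RPLP2 follow the dashed line, from 0.32 for MT2A in vector replicate 3 to -0.33 in oeRNF112 replicate 3, and MTF1 moves the opposite way.

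Among 16 other tested genes of zinc transport, 1 passed the test, where 18.1% of all tested genes did; with so few genes these shares are given as a description. Of the 5 tested zinc exporters other than SLC30A1, each missed the threshold (edgeR adjusted p 0.178 to 0.799, log2 fold changes -0.22 to 0.28). Of 11 tested zinc importers of the SLC39 family, 1 was called, SLC39A14, which carries zinc, iron and manganese into the cell and rose by 0.40 on the log2 scale (SE 0.0908, edgeR adjusted p = 0.0151). It had 4144, 4314 and 3580 counts in vector and 5715, 5195 and 5891 in oeRNF112 samples, with no overlap. Its call was lost without vector replicate 1 (edgeR adjusted p = 0.0593), oeRNF112 replicate 1 (edgeR adjusted p = 0.0729) or oeRNF112 replicate 3 (edgeR adjusted p = 0.0541). The list medians were -0.04 for the exporters and -0.10 for the importers, beside 0 for all tested genes.

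Of 12 tested genes of copper handling, 2 were called, both higher, against 9.97% of all tested genes. ATP7B, a copper-exporting ATPase, rose by 0.78 (SE 0.147, edgeR adjusted p = 0.00654), from 356, 452 and 391 counts to 725, 595 and 867. SLC31A2, which takes part in copper uptake, rose by 0.53 (SE 0.106, edgeR adjusted p = 0.00881), from 370, 386 and 395 counts to 571, 609 and 578. The list median was -0.05.

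Among genes induced by metal, oxidative or protein stress, 6 of 10 were called, all higher, where 9.97% of all tested genes were, and the list median was 0.34 beside 0 for all tested genes. Since the list was chosen with earlier results of these data known, this excess is no independent evidence. HMOX1, the haem-degrading enzyme induced by cadmium and other stressors, rose by 0.93 (SE 0.135, edgeR adjusted p = 0.00195), with 1151, 1054 and 1302 counts in vector and 2039, 2744 and 2273 in oeRNF112 samples. The antioxidant genes SRXN1 (0.42), TXNRD1 (0.48), GCLM (0.40) and the cystine transporter SLC7A11 (0.64) were called too, with edgeR adjusted p of 0.011 to 0.0379. Of the protein stress genes HSPH1 was called (0.29, edgeR adjusted p = 0.0381). HSPA1A (0.18), HSPA1B (0.10) and DNAJB1 (0.02) were not, nor was GCLC (0.26), with edgeR adjusted p of 0.149 to 0.872. HMOX1 stayed called without any 1 sample. SRXN1 and TXNRD1 were lost without vector replicate 1 (edgeR adjusted p = 0.0579 and 0.0556). GCLM was lost without vector replicate 1 or 3, or oeRNF112 replicate 2 or 3 (edgeR adjusted p = 0.103, 0.0754, 0.0503 and 0.117), and SLC7A11 without vector replicate 1 or 3, or oeRNF112 replicate 1 or 3 (edgeR adjusted p = 0.131, 0.108, 0.0586 and 0.111). The log2 fold changes of GCLM and SLC7A11 without those samples were 0.31 to 0.41 and 0.40 to 0.74.

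Among 7 tested genes known to be induced by glucocorticoids, 4 were called higher and 1 lower, with a list median of 0.34. Over all tested genes 9.97% were called higher and 8.14% lower; this list, like that of the stress genes, was chosen with earlier results of these data known, so its excess over those shares is a description only. DUSP1, a MAP kinase phosphatase, rose by 0.82 (SE 0.111, edgeR adjusted p = 0.00135). The kinase gene SGK1 rose by 0.79 and TSC22D3, which encodes the glucocorticoid-induced leucine zipper protein, rose by 0.64 (edgeR adjusted p = 0.00206 and 0.0081). FKBP5, a co-chaperone of the glucocorticoid receptor, rose by 0.30 (edgeR adjusted p = 0.0473), a call that was lost without any 1 of the 6 samples (edgeR adjusted p 0.0502 to 0.159). CEBPD, a transcription factor, fell by 0.70 (SE 0.115, edgeR adjusted p = 0.00347).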

How the data were processed

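RNA was extracted from T24 cells with TRIzol and made into stranded mRNA libraries. Per the labels, the authors used Trimmomatic 0.36, Subread 1.5.1 and featureCounts with GRCh38; the aligner, the annotation and the strand setting were not given in the sources used here. The authors deposited raw read counts for 23152 genes, and RPKM values that equal each count divided by the sample total and by 1 gene length (within 0.1% for 20637 of 20637 genes with counts in at least 2 samples). Libraries held 40029547 to 41259569 counts, which sets the precision of low genes. Labels gave 3 vector and 3 oeRNF112 samples; no 2 samples were identical.

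Counts were filtered with filterByExpr, scaled with TMM factors and tested with the quasi-likelihood test of edgeR 4.0.16 in R 4.3.3, with Benjamini-Hochberg adjustment over 14467 genes and a threshold of 0.05. The study's methods name no test for these data. DESeq2 1.42.0, limma 3.58.1 on log2(RPKM + 1) and log2(RPKM + 0.1), other filters and scalings, a replicate block and leaving out each sample were the alternatives. On simulated data, edgeR recovered 22.1% of 95 genes changed by 0.5 on the log2 scale and 83% of 100 changed by 1. The simulated data gave 111 calls against 2620 here, which makes the adjusted threshold stricter there, so these shares do not carry over directly. Genes named were RNF112, the 8 members, up to 5 called genes with the smallest p per list, and the 5 genes most like MT2A. Marker and flanking genes, SOD1 and the rest of the stress list were added as checks. Members and lists were chosen with earlier results of these data known.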

Additional observations from a re-analysis of the deposited data

How the results depend on the processing

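MT1X, MT1F, MT1E, MT1M and SLC30A1 kept the sign of their fold change under all 16 alternatives. MT1X was called under 9 of the 10 that kept every sample and in 1 of the 6 that left a sample out (log2 fold change 0.40 to 0.77, edgeR, DESeq2 or limma adjusted p 0.000876 to 0.14); MT1F was called in 5 of 10 and 0 of 6 (0.34 to 0.68, adjusted p 0.00365 to 0.233). Hence 2 members were called higher with library totals, with each of the 3 limma fits on RPKM and with the length trend removed, an alternative chosen after the data were seen. Leaving out 1 sample gave 0 to 1 members called higher and 0 to 2 called lower, and 1061 to 3387 genes called in place of 2620. Counts over 1.5 times lower were found when vector replicate 1 (1061 genes), oeRNF112 replicate 1 (1263) or oeRNF112 replicate 3 (1446) was left out. Removing the length trend gave 4130 calls.

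With the replicate block, 876 genes and 0 members were called, and MT1X had a log2 fold change of 0.55 (edgeR adjusted p = 0.14). Calls of SLC39A14, SLC31A2, SRXN1, TXNRD1, GCLM, SLC7A11 and FKBP5 were lost too (edgeR adjusted p 0.0729 to 0.242). ATP7B, HMOX1, DUSP1, SGK1, CEBPD and TSC22D3 stayed called with the block (edgeR adjusted p 0.0114 to 0.0417). Deviations of same-numbered samples correlated at -0.109, -0.337 and -0.276, so a shared number was not taken as a pairing.

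Genes called higher made up 55% of the calls with TMM factors, 75.3% with library totals, 70.5% to 72.9% with limma and 70.5% with the block. Genes called lower numbered 1178, against 663, 603 to 652 and 258 in the same order, and 2003 with the length trend removed. With that trend removed, MT2A had 0.07, RPLP2 0.04 and PSMB9 0.02, and MTF1 had -0.01 to 0.28 with 1 sample left out, the lowest without oeRNF112 replicate 3; none of these was called in any fit. Of the 304 values for 19 other genes, 274 kept their direction and side of the threshold. The cause of these shifts was not tested. Changes of 0.5 on the log2 scale were mostly missed on simulated data at 3 samples a group. Those data gave 111 calls, so their adjusted threshold was stricter than with 2620 calls, and recovery here was not measured. MT1G could not be assessed at this depth.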
